A study of Homo sapiens with 6 samples.

Results

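The cytosolic heat shock proteins, with the transcription factor HSF1 that drives their stress-induced transcription, were examined as 10 listed genes: HSF1, HSPB1, HSPB8, HSPA4, HSPA8, HSPH1, HSP90AA1, HSP90AB1, DNAJB1 and BAG3. Members were the probe sets that the array annotation ties to a single one of these genes. They numbered 22 and gave a value for 9 of the 10 genes, among 19775 genes tested on the whole array. HSPA8, the constitutive cytosolic HSP70, has 4 annotated probe sets, all shared with small nucleolar RNA genes, so it has no value here.

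The cells were MDA-MB-231, a human line established from a triple-negative breast cancer. In one group the cells received a small interfering RNA (siRNA) against SDC1, which encodes the heparan sulfate proteoglycan syndecan-1. In the other group they received a negative control siRNA, and both groups hold 3 arrays of independent replicates. The siRNA sequences, their dose and the time after transfection are not stated in the labels. Each value is on the log2 scale, with the median of its probe set over the 6 arrays set to 0, so differences between arrays can be read from it and levels cannot. A called probe set or gene is one whose Benjamini-Hochberg adjusted p from limma was under 0.05, and every difference is SDC1 siRNA minus control siRNA.

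SDC1 itself was at 1.13, 1.32 and 1.09 in the control siRNA arrays and at -1.14, -1.16 and -1.43 in the SDC1 siRNA arrays, which is 18.7% of the control transcript (log2 fold change -2.42, SE 0.097, adjusted p = 2.17e-06). Array medians lay between -0.01 and 0.01. The poly-A spike-in controls, which are added to RNA before labelling, had means of 0.35 to 0.60 in SDC1 siRNA replicates 1 and 2 and control replicate 1, called high here, and of -0.41 to -0.38 in the other arrays, called low. Marker genes could not check the cell line, since only coarse brightness classes can be read from centred values. The 5 markers listed as bright (VIM, CD44, EGFR, CAV1 and AXL) fell into the class of log2 level between 8 and 16, but so did 4 of the 5 listed as dim (ESR1, ERBB2, CDH1 and EPCAM), with PGR between 4 and 8. With the class from all 6 arrays ERBB2 also lay between 4 and 8.

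Cytosolic chaperones bind unfolded or partly folded proteins and keep them from aggregating. Small heat shock proteins such as HSPB1 (HSP27) hold such clients without using ATP. HSP70 proteins bind and release them in an ATP cycle that J-domain proteins such as DNAJB1 start and that nucleotide exchange factors such as HSPA4, HSPH1 and BAG3 reset, and HSP90 proteins take over clients such as kinases and steroid receptors for their last folding steps. HSF1 is held inactive in unstressed cells. On heat or proteotoxic stress it binds heat shock elements, inverted repeats of GAA, in the promoters of these genes. Many cancer cells carry high levels of several of these proteins.

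The promoters of 9 of the 10 genes were in the RefSeq table of GRCh38.p14, 14 promoters in all, each reaching from 250 bases before to 50 after a transcription start. They were searched on both strands for a heat shock element of 2 units (GAANNTTC or TTCNNGAA) and for one of 3 units, which is GAANNTTC followed by NNGAA or TTCNNGAA followed by NNTTC and so always contains the shorter. The 3-unit letters are rare: 172 of the 35116 promoters in the table hold them, or 0.490%, against 13.5% for the 2-unit letters. They were found 88 bases before the second start of HSP90AA1, 165 and 112 bases before the third start of HSP90AB1, and 230 and 55 bases before the start of HSPA8. Only the 2-unit letters were found for HSPB1 (182 bases before the start), DNAJB1 (77 and 47 bases before the second start) and HSPB8 (88 bases before the start), each counted to the first base of the match. A further 2-unit match lies 68 bases before the second start of HSP90AA1, and others just after the start of HSPB8 and the third start of DNAJB1. The windows of HSPA4, HSPH1 and BAG3 hold neither. Stretches of 100 bases from 5 of these promoters follow, because they belong to the called genes, to the HSP90 gene that was not called and to the small heat shock gene with a probe set on the other side. They are written in the direction of transcription, with capitals for the 3-unit element in both HSP90 genes and for the 2-unit element in the other genes.
HSP90AA1, chr14:102087065-102087164, minus strand, from 120 to 21 bases before the start: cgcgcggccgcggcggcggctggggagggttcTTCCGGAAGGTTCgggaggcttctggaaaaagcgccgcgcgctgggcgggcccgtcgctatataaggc
HSP90AB1, chr6:44247758-44247857, plus strand, from 185 to 86 bases before the start: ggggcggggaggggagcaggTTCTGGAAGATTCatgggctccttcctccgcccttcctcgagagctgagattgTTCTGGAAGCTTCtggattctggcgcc
HSPB1, chr7:76302443-76302542, plus strand, from 230 to 131 bases before the start: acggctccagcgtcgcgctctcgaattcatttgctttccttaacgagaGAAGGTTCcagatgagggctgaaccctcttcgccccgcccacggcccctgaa
DNAJB1, chr19:14518408-14518507, minus strand, from 110 to 11 bases before the start: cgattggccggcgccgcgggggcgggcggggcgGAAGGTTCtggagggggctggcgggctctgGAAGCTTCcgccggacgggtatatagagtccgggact
HSPB8, chr12:119178801-119178900, plus strand, from 130 to 31 bases before the start: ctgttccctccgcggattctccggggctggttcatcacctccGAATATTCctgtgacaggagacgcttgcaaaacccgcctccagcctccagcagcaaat
These matches describe the letters in the windows and are no evidence of binding in these cells.

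**Figure D1:**
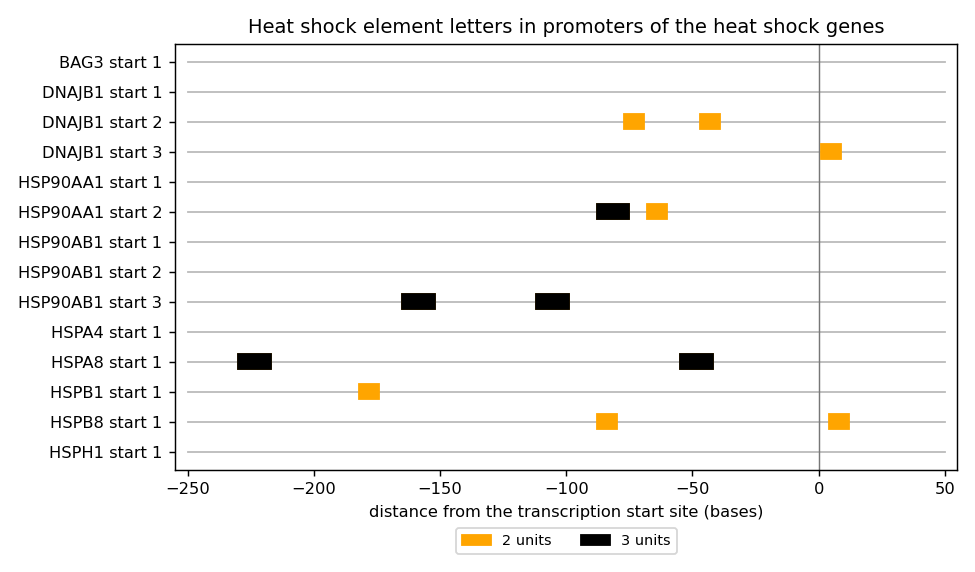
Matches of the heat shock element letters in the 14 RefSeq promoters of 9 heat shock genes, drawn by distance in bases from the transcription start, with orange for 2 units, black for 3 units and the starts of a gene numbered in the direction of transcription. The 3-unit letters appear in one promoter each of HSP90AA1, HSP90AB1 and HSPA8, and the lines of HSPA4, HSPH1 and BAG3 are empty.

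HSPB1, HSP90AA1 and DNAJB1 were higher after SDC1 siRNA, by 0.68, 0.49 and 0.26 on the log2 scale, and no gene of the group was called lower. Thus 3 of the 9 measured genes (33.3%) were called, against 28.1% of all genes on the array, of which 13.0% were called higher and 15.1% lower. The share of called genes is near that background. The median log2 fold change of the 9 genes was 0.18, against 0.00 over all genes, with 7 genes above 0 and 2 below. At an unadjusted p under 0.05 the count was 7 of 9, among them HSPB8 with a negative log2 fold change, against 37.6% of all genes. The shares of all genes include dim genes, most heat shock probe sets are bright, and shares among bright genes are not given. The median and both counts of 7 include HSPA4 at 0.19. With the brightness class from all 6 arrays HSPA4 was at -0.21, and no direction is given for it below. A called change of at least 1.5-fold was seen in 1 of the genes, HSPB1, and in 6.99% of all genes.

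**Figure D2:**
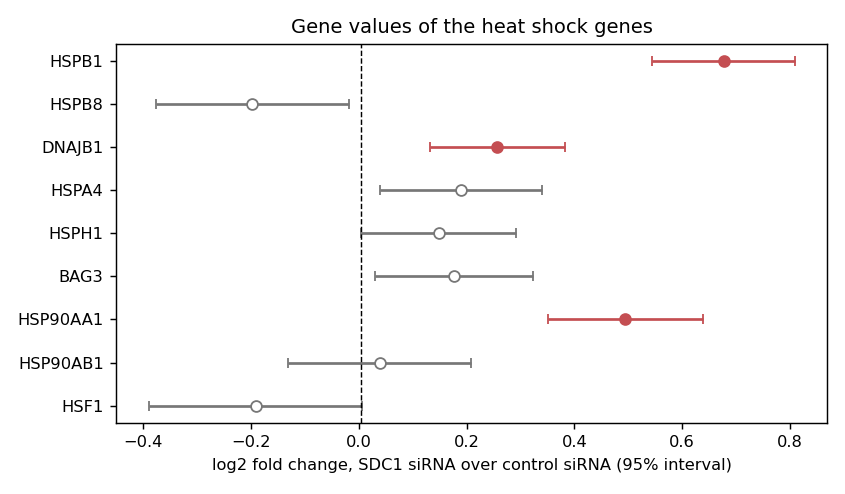
Log2 fold change of each measured heat shock gene, SDC1 siRNA over control siRNA, with 95% intervals of the limma fit (n = 3 arrays per group) and the median of all genes as a dashed line. Filled red points mark the called genes HSPB1 (0.68), HSP90AA1 (0.49) and DNAJB1 (0.26), and the intervals of HSF1 and HSP90AB1 include 0.

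Of the 22 probe sets, 8 (36.4%) were called, 7 higher and 1 lower after SDC1 siRNA, against 19.8% of all 54613 probe sets (9.70% higher and 10.1% lower). Most heat shock probe sets are bright, and in the brightest class 7 of 18 (38.9%) were called against 33.7% of all probe sets of that class. The class is read from the 3 highest arrays of a probe set. The called HSPA4 208814_at is among the 7 only through its SDC1 siRNA arrays, and from all 6 arrays it is in the class 4 to 8. The 33.7% rests on the same class rule. The 2 groups of arrays did not overlap in 14 of the 22 probe sets (63.6%), against 35.7% of all probe sets. That background includes dim probe sets, and the share within the brightest class is not given. All 4 HSPA4 and all 4 HSP90AA1 probe sets are among the 14, and probe sets of the same gene are not independent. Among those 14, 6 were not called, 4 with lower and 2 with higher values after SDC1 siRNA. The median log2 fold change of the 22 probe sets was 0.07, against 0.01 over all probe sets.

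**Figure D3:**
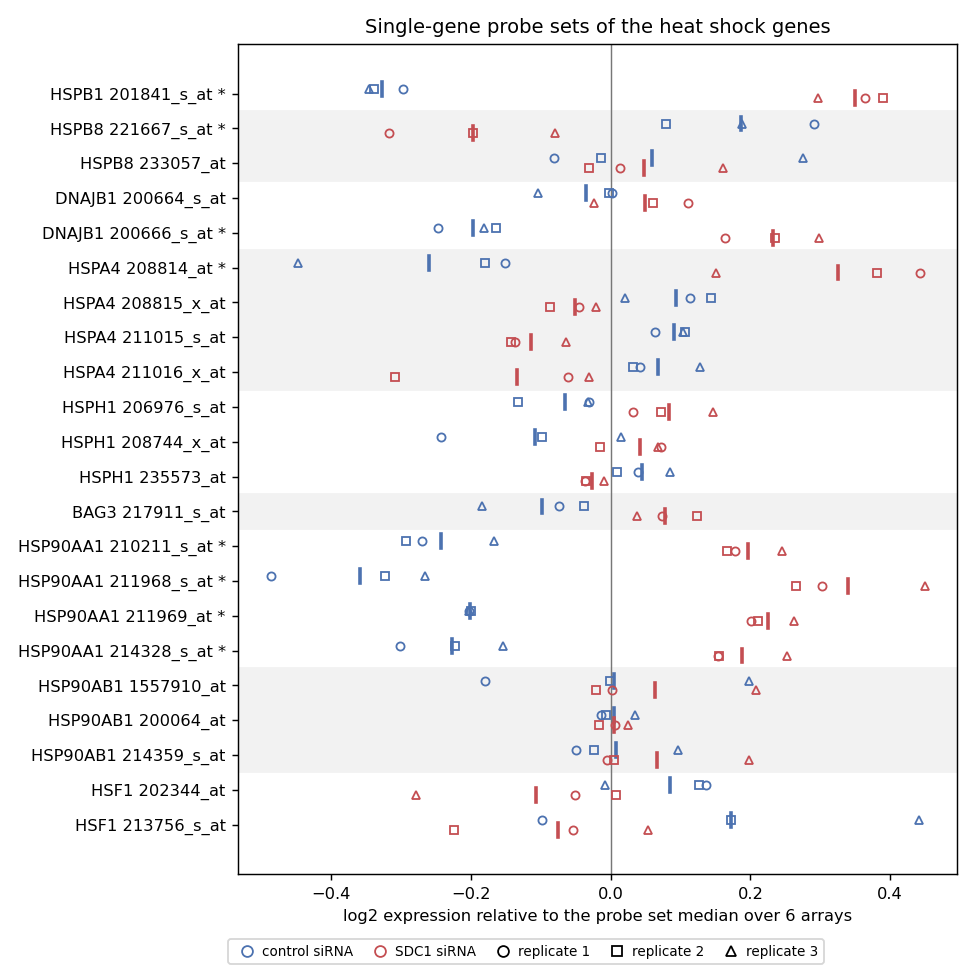
Log2 expression of the 22 single-gene probe sets on each of the 6 arrays, with the median of each probe set at 0, with control siRNA in blue, SDC1 siRNA in red, one symbol per replicate number, vertical bars for group means and asterisks for called probe sets. The HSPB1 probe set and all 4 HSP90AA1 probe sets have separate groups, whereas the 3 HSP90AB1 probe sets overlap.

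The 2 small heat shock genes had log2 fold changes of opposite sign, and only HSPB1 was called as a gene. HSPB1, a holdase that also binds actin filaments, is measured by 201841_s_at, which was at -0.30, -0.34 and -0.35 in the control siRNA arrays and at 0.36, 0.39 and 0.30 in the SDC1 siRNA arrays. The groups lie far apart compared with their spread, and the within-group SD of 0.0389 was smaller in 7.30% of all genes. The log2 fold change was 0.68 (SE 0.058, adjusted p = 6.99e-05 over all genes), or 1.60-fold. Arrays measure the RNA of a whole culture, so more transcript per cell and more cells with the transcript cannot be told apart, here or in any gene that follows.

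HSPB8 forms a complex with BAG3 that hands clients to autophagy. Its probe set 221667_s_at was at 0.29, 0.08 and 0.19 after control siRNA and at -0.32, -0.20 and -0.08 after SDC1 siRNA. The groups do not overlap, and the log2 value of the probe set fell by 0.38 (SE 0.090, adjusted p = 0.0174). Leaving out control replicate 1, SDC1 siRNA replicate 1 or SDC1 siRNA replicate 2 ended the call (adjusted p = 0.0548, 0.0671 and 0.0543). The log2 fold change was -0.55 among the arrays of high spike-in signal and -0.21 among those of low, each with a single array in one group and neither called. With spike-in level as a block over all 6 arrays it was -0.38 and still called (adjusted p = 0.0390). The second HSPB8 probe set, 233057_at, had overlapping groups and a log2 fold change of -0.01 (95% interval -0.25 to 0.23). The gene value, the mean of both, was -0.20 (SE 0.078, adjusted p = 0.0999) and did not pass the test. HSPB1 minus HSPB8, as gene values, shifted by 0.87 on the log2 scale, from -0.45 ± 0.11 (SD, n = 3) after control siRNA to 0.42 ± 0.15 (SD, n = 3) after SDC1 siRNA. An exact permutation test of this shift gave p = 0.1, the smallest that 3 against 3 arrays allow.

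DNAJB1 (HSP40) delivers clients to HSP70 and stimulates its ATPase. Its value, the mean of 2 probe sets, was at -0.12, -0.08 and -0.14 in the control siRNA arrays and at 0.14, 0.15 and 0.14 in the SDC1 siRNA arrays. The log2 fold change was 0.26 (SE 0.055, adjusted p = 0.00825). The probe sets did not share it evenly. Their range of log2 fold changes, 0.346, is a common one, matched or exceeded in 33.6% of the 10523 genes with several probe sets. The probe set 200666_s_at was at -0.25, -0.16 and -0.18 after control siRNA and at 0.16, 0.24 and 0.30 after SDC1 siRNA, and rose by 0.43 (SE 0.072, adjusted p = 0.00338). The other, 200664_s_at, was at 0.00, 0.00 and -0.10 and at 0.11, 0.06 and -0.02, with overlapping groups and a log2 fold change of 0.08 (95% interval -0.08 to 0.25). Among the SDC1 siRNA arrays the one highest on one probe set was the lowest on the other, and the mean of both had a within-group SD of 0.0216, a value undercut by 1.10% of all genes.

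Within the arrays of high and of low spike-in signal taken alone, the log2 fold changes of the called genes were near the pooled ones. They were 0.67 and 0.64 for HSPB1, 0.52 and 0.53 for HSP90AA1, and 0.26 and 0.25 for DNAJB1. Each of these fits sets 1 array against 2, and DNAJB1 was not called in them (adjusted p = 0.114 and 0.215). With spike-in level as a block over all 6 arrays the 3 genes were called.

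HSPA4 and HSPH1 are members of the HSP110 family, which exchange the nucleotide of HSP70. The 4 probe sets of HSPA4 pointed in opposite directions. The probe set 208814_at was at -0.15, -0.18 and -0.45 in the control siRNA arrays and at 0.44, 0.38 and 0.15 in the SDC1 siRNA arrays, and rose by 0.58 (SE 0.110 on the log2 scale, adjusted p = 0.00596). In contrast, 211015_s_at was at 0.06, 0.11 and 0.10 after control siRNA and at -0.14, -0.14 and -0.06 after SDC1 siRNA, and its log2 fold change was -0.21 (SE 0.068; adjusted p of 0.0681). In the limma fit without the dimmest brightness class 211015_s_at was called lower (adjusted p = 0.0472). The remaining probe sets, 208815_x_at and 211016_x_at, had log2 fold changes of -0.14 and -0.20 and did not pass the test. None of the 4 had overlapping groups.

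The range of log2 fold changes among the HSPA4 probe sets, 0.79, was matched or exceeded in 7.66% of the 10523 genes with several probe sets, whose median range was 0.237. The array-by-array difference between 208814_at and 211015_s_at went from -0.35 ± 0.18 to 0.44 ± 0.20 (SD, n = 3 each), a description of probe sets chosen for how far they part. As a gene value, the mean of these 2 probe sets gave 0.19 (SE 0.066, adjusted p = 0.0636). That value depends on the brightness class of 208814_at, which is 8 to 16 from the 3 arrays at or above the median and 4 to 8 from all 6 arrays. Those 3 arrays are the SDC1 siRNA arrays, so 208814_at enters the gene value only through the group where it is higher. With the class from all 6 arrays, an alternative added after the data were seen, HSPA4 is represented by 211015_s_at alone. It was then called lower, at -0.21 (adjusted p = 0.0254 over all genes). No direction is therefore given for HSPA4. Which transcripts each probe set detects was not analysed here.

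HSPH1 (HSP105) was not called. Its gene value, from 206976_s_at, was at -0.03, -0.13 and -0.03 after control siRNA and at 0.03, 0.07 and 0.15 after SDC1 siRNA, groups that do not overlap. The log2 fold change was 0.15 (SE 0.063, adjusted p = 0.121). Its other probe sets gave 0.15 (208744_x_at) and -0.07 (235573_at), and neither passed the test. The groups of 235573_at did not overlap either, but with the lower values after SDC1 siRNA. Averaging all HSPH1 probe sets gave 0.08 (adjusted p = 0.393). BAG3, the exchange factor that links HSP70 to selective autophagy, had 1 probe set, 217911_s_at, with values of -0.07, -0.04 and -0.18 and of 0.07, 0.12 and 0.04. Every SDC1 siRNA array lay above every control array, and the log2 fold change of 0.18 (SE 0.064, adjusted p = 0.0746) did not pass the test.

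**Figure D4:**
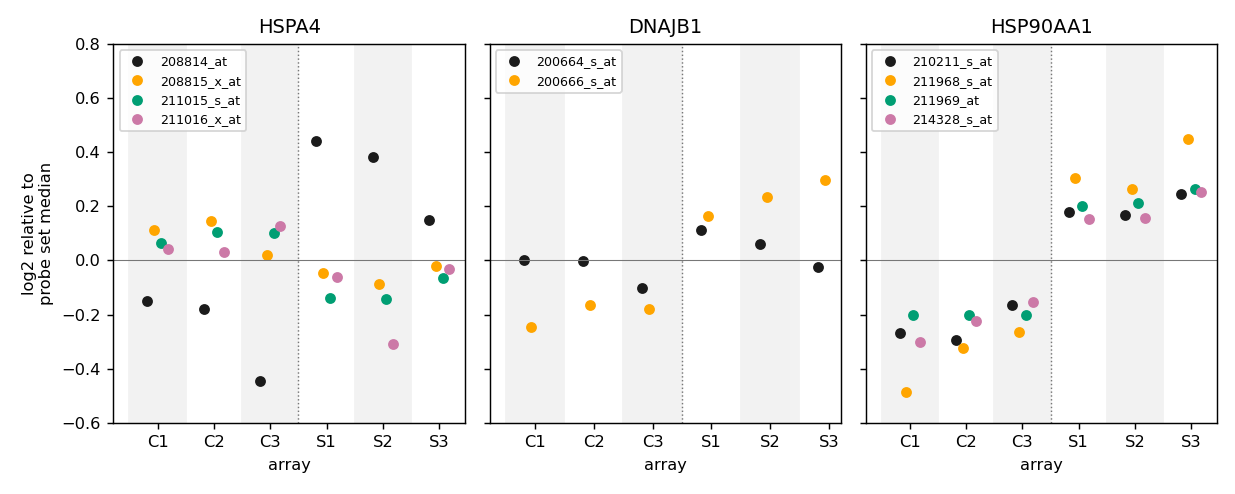
Log2 expression of each probe set of HSPA4, DNAJB1 and HSP90AA1, relative to its median, on the control siRNA arrays (C1 to C3) and the SDC1 siRNA arrays (S1 to S3). The HSPA4 probe sets part in direction (0.58 for 208814_at against -0.21 for 211015_s_at), the DNAJB1 ones differ in size (0.43 and 0.08), and the 4 HSP90AA1 ones all lie higher after SDC1 siRNA.

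Of the cytosolic HSP90 genes 1 was called. HSP90AA1, the stress-inducible form, was at -0.31, -0.26 and -0.20 in the control siRNA arrays and at 0.21, 0.20 and 0.30 in the SDC1 siRNA arrays. The log2 fold change was 0.49 (SE 0.063, adjusted p = 0.000536), or 1.41-fold. All 4 of its probe sets were called, at 0.41 (214328_s_at), 0.43 (211969_at), 0.44 (210211_s_at) and 0.70 (211968_s_at). The last was at -0.49, -0.32 and -0.27 after control siRNA and at 0.30, 0.27 and 0.45 after SDC1 siRNA. Its value minus the mean of the others shifted by 0.27 between the groups, with no overlap. This probe set was chosen for its high fold change, so the sign of the shift was fixed in advance and was not tested. The range among the 4 probe sets, 0.284, was matched or exceeded in 42.6% of the 10523 genes with several probe sets.

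HSP90AB1, the constitutive form, was at -0.08, -0.01 and 0.11 after control siRNA and at 0.00, -0.01 and 0.14 after SDC1 siRNA. The groups overlap, and the log2 fold change of 0.04 (SE 0.074, adjusted p = 0.757) had a 95% interval from -0.13 to 0.21. Its 3 probe sets gave 0.00, 0.06 and 0.06, none called. The difference HSP90AA1 minus HSP90AB1 was -0.26 ± 0.04 (SD, n = 3) after control siRNA and 0.19 ± 0.03 (SD, n = 3) after SDC1 siRNA. The shift of 0.46 is large compared with these SDs, and the exact permutation test gave p = 0.1, the smallest possible here. Adjusted over the 2 pairs of genes compared, p was 0.1 for each. The 2 genes are close paralogs, and cross-hybridisation between them was not tested.

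HSF1 was at 0.14, 0.13 and -0.01 in the control siRNA arrays and at -0.05, 0.01 and -0.28 in the SDC1 siRNA arrays (202344_at). Control replicate 3 overlaps the SDC1 siRNA group. The log2 fold change of -0.19 (SE 0.087, adjusted p = 0.146) did not pass the test, and its within-group SD of 0.121 was larger than that of 69.0% of all genes. The second probe set, 213756_s_at, gave -0.25 (adjusted p = 0.267), with groups that also overlap. Averaging both probe sets gave -0.22 (adjusted p = 0.0374), and adding spike-in level as a block gave -0.25 (adjusted p = 0.0485), so the HSF1 call depends on these settings. Without SDC1 siRNA replicate 3 the HSF1 value was -0.11 (adjusted p = 0.356), and without control replicate 3 that of 213756_s_at was -0.11 (adjusted p = 0.600). Transcript values carry no information on HSF1 protein or its activation.

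The other chaperone genes, in 10 lists by role, moved in both directions. Of 85 listed genes 78 were measured, and 13 were called higher and 15 lower after SDC1 siRNA, 35.9% against the 28.1% of all genes. Bright probe sets are called more often than all probe sets (33.7% against 19.8%). The 2 shares of genes were not matched for brightness, and their difference was not tested. HSPA1A and HSPA1B, the classic stress-inducible HSP70 genes, share their probe sets with other genes and have no value. Among the 7 other HSP70 genes measured, HSPA14, a ribosome-associated form, had a log2 value that fell by 0.50 (SE 0.065, adjusted p = 0.000595), and HSPA1L, a form best known from testis, fell by 0.45 (SE 0.084, adjusted p = 0.00383). HSPA4L, the nearest relative of HSPA4, had a log2 fold change of 0.15 (adjusted p = 0.130).

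Among the 8 other small heat shock genes, HSPB9 was called, with a fall of 0.31 on the log2 scale (SE 0.085, adjusted p = 0.0254). It is measured by 1 probe set of the dimmest class. IFT25, also known as HSPB11, and CRYAB, the lens and muscle alpha-B crystallin, both had log2 fold changes of 0.15 and were not called. Of the other heat shock factor genes HSF5 and HSF4 were measured, and neither was called, with log2 fold changes of -0.07 and 0.05. HSBP1, an HSF1-binding protein kept in the same list, had -0.11 and was not called.

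Genes that work with HSP70 were called in both directions. Of 12 other cytosolic J-domain genes 3 were called higher and 3 lower. The ribosome-associated DNAJC2 fell by 0.45 (SE 0.062, adjusted p = 0.000785) and DNAJA2, a general HSP70 partner, by 0.39 (SE 0.065, adjusted p = 0.00226), and DNAJC21, a factor in ribosome maturation, rose by 0.30 (SE 0.058, adjusted p = 0.00504), all on the log2 scale. Of 6 further exchange factors and co-chaperones, the BAG family members BAG4 (0.57, SE 0.063, adjusted p = 0.000268) and BAG5 (0.34, SE 0.068, adjusted p = 0.00628) rose, and BAG1 (-0.14, adjusted p = 0.137) was not called.

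The 12 measured co-chaperones of HSP90 included 3 called higher and 1 lower, with a median log2 fold change of 0.15. FKBP5, an immunophilin of steroid receptor complexes, rose by 0.58 (SE 0.068, adjusted p = 0.000334) and SUGT1, an adaptor for HSP90 clients, by 0.41 (SE 0.066, adjusted p = 0.00202). PTGES3, the p23 co-chaperone that binds the ATP-bound state of HSP90, fell by 0.28 (SE 0.066, adjusted p = 0.0141). Subunits of other cytosolic folding machines were called as well. In the CCT chaperonin, which folds actin and tubulin, CCT8 (0.39, adjusted p = 0.00158) and CCT7 (0.20, adjusted p = 0.0283) rose and CCT5 (-0.28, adjusted p = 0.00631) fell, of 7 subunits measured. In prefoldin, which delivers clients to it, PFDN1 (-0.26, adjusted p = 0.00857) and PFDN5 (-0.19, adjusted p = 0.0379) fell, of 5 measured.

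Chaperones of other compartments are given for comparison. In mitochondria 3 of 8 genes were called higher and 1 lower: the chaperonin pair HSPE1 and HSPD1 rose by 0.55 (SE 0.068, adjusted p = 0.000467) and 0.34 (SE 0.056, adjusted p = 0.00215), and the exchange factor GRPEL2 fell by 0.39 (SE 0.066, adjusted p = 0.00256). In the endoplasmic reticulum 4 of 10 were called, all lower, with a median log2 fold change of -0.14. The 6 not called lay on both sides of 0, from -0.14 to 0.22. DNAJB9, a J-domain protein induced by the unfolded protein response, fell by 1.07 (SE 0.058, adjusted p = 6.4e-06), HSPA13 by 0.71 (SE 0.100, adjusted p = 0.000897) and DNAJB11 by 0.47 (SE 0.063, adjusted p = 0.000693). The difference between compartments was not tested.

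**Figure D5:**
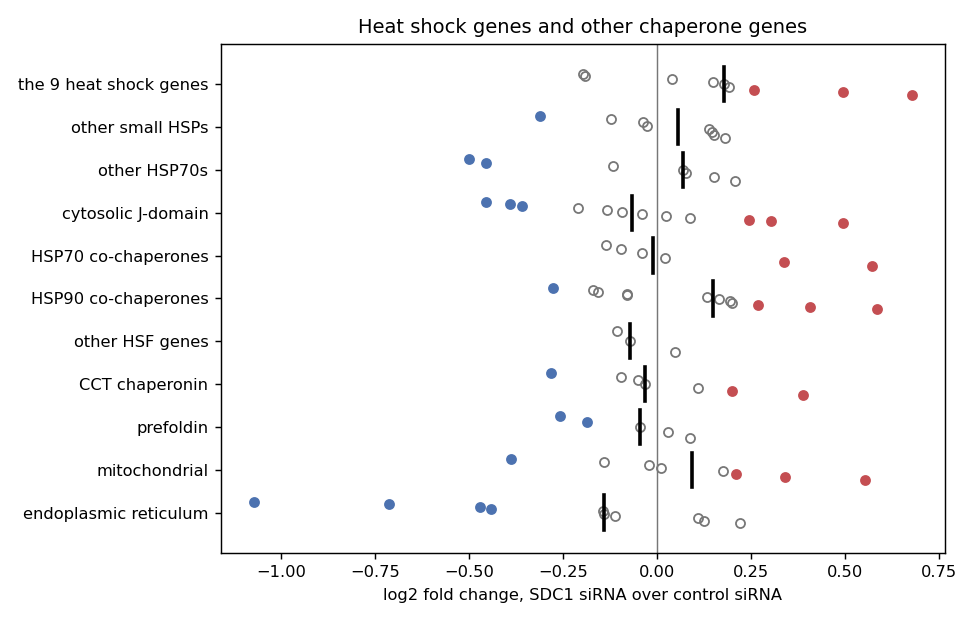
Log2 fold change, SDC1 siRNA over control siRNA, of the 9 measured heat shock genes and of 78 other chaperone genes in 10 lists, with filled red points for genes called higher, filled blue for genes called lower, open points for genes not called and a black bar for the median of each list. The heat shock genes have a median of 0.18, which includes HSPA4 at 0.19 although no direction is given for it, and the endoplasmic reticulum list a median of -0.14.

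Genes that share the 3-unit heat shock element were described over the whole array. Of 89 measured genes with these letters in a RefSeq promoter, 8 were called higher, among them HSP90AA1, and 11 lower, or 21.3%, against 29.6% of the 15295 measured genes whose promoters lack them. The median log2 fold change was 0.02 with the letters and 0.00 without. Without control replicate 3 the number called among the 89 was 11. HSP90AA1 and HSP90AB1 both carry the letters, with log2 fold changes of 0.49 and 0.04.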

How the data were processed

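RNA from 6 cultures was hybridised to 6 Affymetrix arrays, 3 per group. The authors deposited log2 values made with RMA, per the submitters' processing notes, which give no version. No other tool or step is named there. Every probe set had a median within 5e-07 of 0 over the 6 arrays, so the deposited log2 values are centred. This was read from the values. Their numeric step gives the range of the level before centring and not the base of the logarithm, which was taken as 2.

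Of 54675 probe sets, 62 controls were left out. The platform annotation ties 41091 of the others to a single gene, 1801 to several and 11721 to none, and 41037 of the single-gene ones matched the RefSeq table of GRCh38.p14, used for symbols and, in its promoter table, sequences. The numeric step, read in those 3 arrays that reach the median, gives a class of log2 level (2 to 4, 4 to 8 or 8 to 16), which can be one class too high. Where the groups do not overlap, those arrays are the ones of the higher group. Single-gene probe sets of a gene's brightest class were averaged, with _x_at probe sets only where there is no other. Genes and probe sets were tested with R 4.3.3 and limma 3.58.1 (a linear model with moderated variances, 2-sided, no covariates, Benjamini-Hochberg at 0.05 over all genes or all probe sets), after a test on simulated data. The number of arrays limits precision: the median SE of a gene's log2 fold change was 0.0747. The pairs HSP90AA1 and HSP90AB1, and HSPB1 and HSPB8, were compared with a 2-sided exact permutation test.

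The members, lists and alternatives were chosen with earlier results of these data known. Named genes are the members, SDC1, up to 3 genes of lowest p in each list and the 3 genes whose values lie nearest to those of HSPB1 over the 6 arrays. The cell line markers, and HSPA1A and HSPA1B as genes with no value, are named beside this rule. Alternatives were the gene summary, a filter on dim genes, array scaling, a robust prior, the replicate number or spike-in level as a block, each spike-in level alone, and leaving out each array.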

Additional observations from a re-analysis of the deposited data

How the results depend on the processing

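Of 452 single values of the 9 genes and 22 probe sets under the alternatives, 413 kept their direction and their side of the threshold, 18 lost the call and 3 gained it. A further 17 changed sign without being called on either side, all of them small values of HSP90AB1, its probe sets or HSPB8 233057_at. The 1 reversal with a call was HSPA4, at -0.21 with the brightness class taken from all 6 arrays, because 208814_at then leaves its gene value. Most losses came from fits within arrays of high or low spike-in signal, which hold 3 arrays each: there 2656 and 1886 genes were called instead of 5551, 2 and 1 heat shock probe sets instead of 8, 11 and 7 genes of the chaperone lists instead of 28, and 7 and 2 genes with the 3-unit element instead of 19. Leaving out 1 array gave 11 to 15 genes with that element, 11 without control replicate 3. The exact permutation test of SDC1 (-2.42) and of HSPB1, HSP90AA1 and DNAJB1 gave p = 0.1, which cannot pass the threshold with 3 arrays per group.

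Same-numbered arrays of the groups had correlations of their deviations of 0.014, 0.081 and 0.099. Arrays of different numbers had correlations from -0.119 to 0.041. The labels name no pairing, and these values cannot settle whether there was one. With the replicate block 5434 genes, 3 heat shock genes and 8 heat shock probe sets were called. Background signal is not among the values, so no detection limit is given.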

Other observations

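The 3 genes whose values lay nearest to those of HSPB1 over the 6 arrays were SMURF2, a ubiquitin ligase, CDC42EP3, an effector of the GTPase CDC42, and SSBP2, a single-stranded DNA binding protein. Their root mean square differences from HSPB1 were 0.0248, 0.0288 and 0.0334 on the log2 scale, against a median of 0.353 over the 19774 other genes. Their log2 fold changes were 0.65, 0.70 and 0.64. They were found by this likeness, so these values describe the choice and are not tested.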
